A study of Mus musculus with 11 samples.

Results

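The genes described are 10 that encode proteins of the neuronal microtubule array: the neuronal beta tubulin Tubb3, the doublecortin family members Dcx and Dclk1, the structural microtubule-associated proteins Map1b, Map2 and Mapt, and the stathmins Stmn1, Stmn2, Stmn3 and Stmn4. They were found by gene symbol in the annotation of the array platform, which gave 33 probes out of 45281 on the array. Basal progenitors of the embryonic mouse cortex had been isolated by flow cytometry, and their RNA was hybridised to 6 arrays at embryonic day 13 (E13) and to 5 at embryonic day 16 (E16). Each array holds the cells of an embryo, 3 litters were used per stage, and the labels name no treatment. All 11 data columns carry the suffix WT, read here as wild type, and the labels used here do not state the strain, which embryo came from which litter, or the sort marker. The probes that stand for the 10 genes were all detected on all 11 arrays.

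Microtubules are polymers of alpha and beta tubulin, and young neurons use them to extend processes and to migrate. Structural microtubule-associated proteins and doublecortins bind along the polymer and stabilise it, whereas stathmins bind free tubulin dimers and favour disassembly. In the cortex, basal progenitors divide away from the ventricle and give rise to neurons, and several of these genes, such as Dcx and Tubb3, are switched on at about the time a daughter cell becomes a neuron.

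Values are normalized log2 intensities. Probes entered the tests if 5 or more arrays detected them at p under 0.05. Of the 33 probes 27 were kept and 6 were detected on no array, namely 3 of Map2, 2 of Mapt and 1 of Dcx. The brightest kept probe stands for each gene, and differences are E16 minus E13, fitted with limma over 10568 genes with Benjamini-Hochberg adjustment and a threshold of 0.05. The highest raw intensity of a member probe on any array was 14689, while the brightest probe of each array read between 30523 and 45131. Each array detected between 43.6% and 45.5% of its probes.

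Of the 10 genes, 1 rose from E13 to E16 (Mapt), 2 fell (Dclk1 and Map1b) and 7 did not pass. Over all genes tested 13% were higher and 14.1% lower, 27.1% in all. Differences of the 10 genes ran from -0.56 to 0.61, with a median of -0.05 against -0.005 over all genes, and their median absolute difference was 0.24 against 0.19. For Mapt and Dclk1 the ranges of the stages were separate, which held for 17% of all genes. At least as large a difference as that of Mapt was seen for 12.1% of all genes. RNA from fewer expressing cells and less RNA per cell cannot be told apart in these bulk samples.

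**Figure D1:**
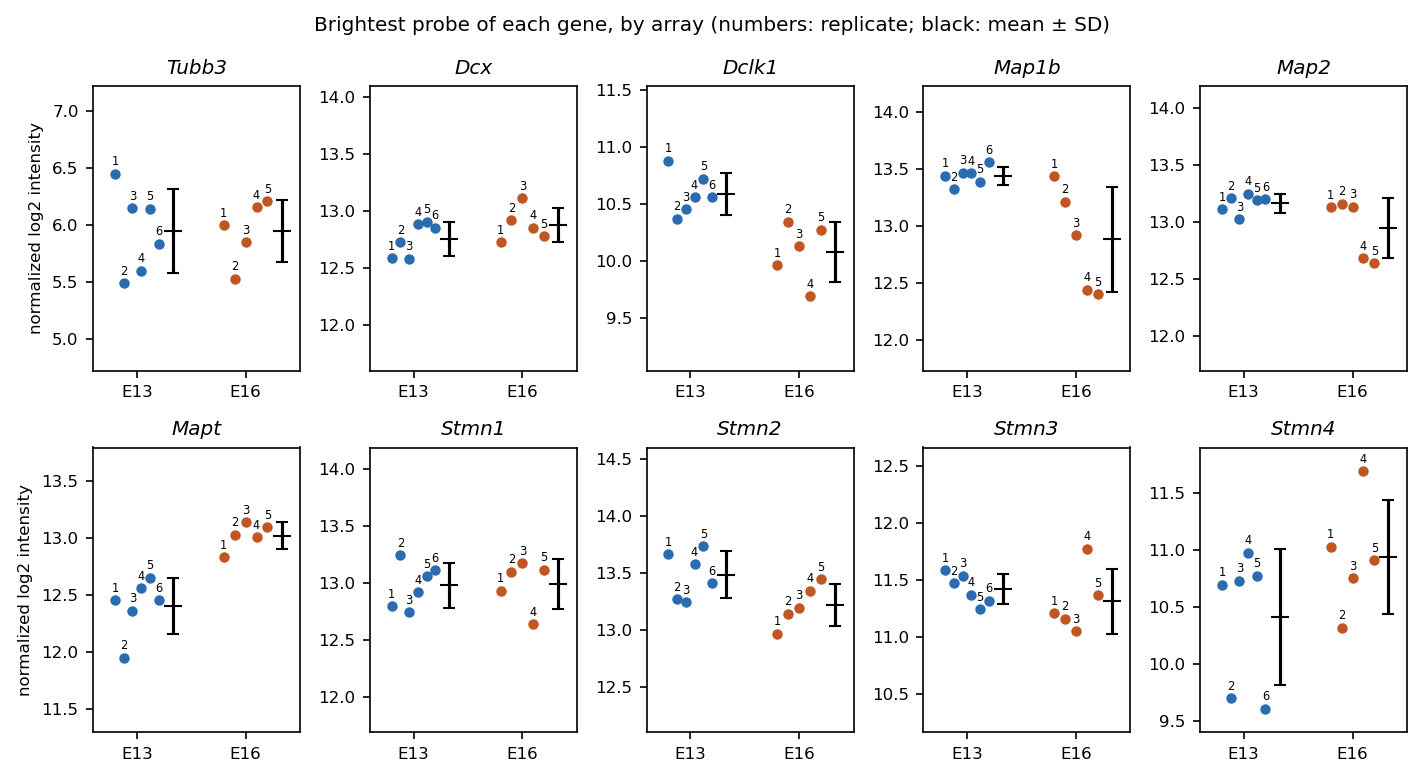
Normalized log2 intensity of the brightest probe of each gene on each array, with the replicate number above each point and the stage mean ± SD in black; every panel spans the same range on the log2 axis. Mapt is higher on all 5 E16 arrays and Dclk1 lower, while E16 replicates 4 and 5 are the lowest arrays for Map1b and Map2.

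Mapt encodes tau, which binds along axonal microtubules. Its brightest probe read 11.95 at the lowest, 12.46 at the median and 12.65 at the highest over the 6 E13 arrays. On E16 replicates 1 to 5 it read 12.83, 13.03, 13.14, 13.01 and 13.09, so every E16 array lay above every E13 array. The stage means were 12.41 ± 0.244 (SD, n = 6) and 13.02 ± 0.117 (SD, n = 5), and Mapt rose by 0.61, or 1.53-fold (SE 0.105, adjusted p = 4.92e-04 in limma). Over the alternatives tried the difference stayed between 0.52 and 0.66, with adjusted p between 1.59e-04 and 0.00452.

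The other kept probes of Mapt gave no difference that passed. The probe ILMN_1257750 averaged 6.45 ± 0.272 (SD, n = 6) and 6.39 ± 0.347 (SD, n = 5), a difference of -0.06 (95% confidence interval -0.43 to 0.32, adjusted p = 0.860 in the limma fit over all 20599 kept probes). The probe ILMN_3107817 differed by 0.10 (interval -0.45 to 0.64, adjusted p = 0.826 in the same fit). It was dim, averaging 5.67 and 5.77, and was detected on 5 of 6 arrays at E13 and 5 of 5 at E16. Its interval does not leave out a rise of 0.61, the one seen for the brightest probe. Set against ILMN_1257750 within each array, the brightest probe stood higher by 5.78 to 6.17 at E13 and by 6.18 to 6.995 at E16. Its mean was 5.96 at E13 and 6.63 at E16. Such differences between probes were taken up after the probes of Mapt, Map1b, Dclk1 and Map2 were seen to differ in sign. They are therefore given as descriptions, without a p-value. For Map2, the brightest probe minus ILMN_1226082 averaged 2.29 at E13 and 2.605 at E16, a change of 0.31.

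Map1b, a structural protein of growing axons, gave probes that disagreed. Its brightest probe, ILMN_2576590, is annotated to the record of a cDNA clone and not to a RefSeq messenger RNA. It read 13.32, 13.45 and 13.55 at E13 as lowest, median and highest. On E16 replicates 1 to 5 it read 13.43, 13.21, 12.92, 12.44 and 12.40. The first of these lies within the E13 range and the other four below it, with replicates 4 and 5 farthest from E13. The probe fell by 0.56, or 1.47-fold (SE 0.155, adjusted p = 0.0145 in limma), and the E16 standard deviation was 0.459 against 0.0796 at E13. Without E16 replicates 4 and 5, left out after seeing the data, the difference was -0.25 and no longer passed (adjusted p = 0.0739).

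The probe ILMN_2737867 of Map1b, annotated to the RefSeq messenger RNA, averaged 12.1 ± 0.259 (SD, n = 6) and then 12.3 ± 0.352 (SD, n = 5). Its difference of 0.19 did not pass (interval -0.15 to 0.52, adjusted p = 0.436 in limma). The within-array difference between these probes ran from 0.93 to 1.63 at E13 and from -0.17 to 0.94 at E16, and its mean changed by -0.74, or by -0.54 without E16 replicates 4 and 5. The remaining 3 kept probes of Map1b differed by -0.37, -0.14 and -0.005, and none passed.

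Dclk1 joins doublecortin domains to a protein kinase domain. Its brightest probe read 10.37, 10.56 and 10.88 at E13 as lowest, median and highest, and 9.96, 10.34, 10.13, 9.69 and 10.27 on E16 replicates 1 to 5. The highest E16 array, replicate 2, lay just under the lowest E13 array. Dclk1 fell by 0.51, or 1.42-fold (SE 0.121, adjusted p = 0.00567 in limma), and adjusted p lay between 0.00400 and 0.0196 over the alternatives tried. A dim probe of Dclk1, ILMN_2434274, was above the detection threshold on 6 of 6 arrays at E13 but 0 of 5 at E16, and its E13 mean was at least 1.28-fold above E16. It entered the tests only through the stage in which it was high, so its adjusted p of 0.00590 in limma adds no support to the fall of Dclk1. For the bound, each E16 array counts at its lowest detected signal or at the probe's own value, whichever is higher.

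The remaining Dclk1 probe, ILMN_1259689, stood higher on part of the E16 arrays. It read 8.15, 8.45 and 8.92 at E13 as lowest, median and highest, and 9.37, 9.14, 9.16, 8.29 and 8.14 on E16 replicates 1 to 5. Replicates 1 to 3 lay above every E13 array, replicate 4 within the E13 range and replicate 5 just below it. The difference of 0.36 did not pass (adjusted p = 0.284 in limma), and was 0.76 without E16 replicates 4 and 5 (adjusted p = 0.00495 in limma). Those are the low E16 arrays of this probe and were left out after seeing the data, so that fit adds no support for a rise. The brightest probe minus this one ran from 1.63 to 2.73 within the E13 arrays and from 0.60 to 2.13 within the E16 arrays. ILMN_2434274 and ILMN_1259689 are both annotated to cDNA clones.

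Promoters are shown for Map1b and Dclk1, whose brightest probes fell, and for Dcx, the relative of Dclk1 set against it further on. Sequences are from RefSeq on build GRCm38.p6, with 250 bases before and 50 after the annotated start, in the direction of transcription. Of the 10 genes 6 were matched there, with 8 promoters in all, since Dclk1 and Dcx have 2 starts each. Capitals mark matches, on either strand, to 5 motifs. These are the E-box CAGATG and the E-box CAGCTG, of the kind proneural factors bind, the Sp1-type GC box GGGCGG, the CCAAT box and the TATA box, searched as TATAAA. No motif searched overlaps another in these 4 sequences. The Map1b promoter is chr13:99516553-99516852 on the minus strand, those of Dclk1 are chr3:55242114-55242413 and chr3:55461478-55461777 on the plus strand, and the one of Dcx is chrX:143933075-143933374 on the minus strand.
Map1b: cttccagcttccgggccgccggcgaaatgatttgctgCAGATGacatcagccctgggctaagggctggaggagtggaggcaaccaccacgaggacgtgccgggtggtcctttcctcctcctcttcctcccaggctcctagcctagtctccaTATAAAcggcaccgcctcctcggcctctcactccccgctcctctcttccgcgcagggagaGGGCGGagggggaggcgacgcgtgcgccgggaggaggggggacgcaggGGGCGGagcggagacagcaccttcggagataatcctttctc
Dclk1 upstream start: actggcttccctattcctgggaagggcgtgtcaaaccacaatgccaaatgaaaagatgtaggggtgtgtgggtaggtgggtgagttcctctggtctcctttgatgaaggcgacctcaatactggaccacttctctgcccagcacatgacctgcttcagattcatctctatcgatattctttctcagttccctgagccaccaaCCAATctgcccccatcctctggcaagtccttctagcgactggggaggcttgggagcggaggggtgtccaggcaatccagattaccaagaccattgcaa
Dclk1 downstream start: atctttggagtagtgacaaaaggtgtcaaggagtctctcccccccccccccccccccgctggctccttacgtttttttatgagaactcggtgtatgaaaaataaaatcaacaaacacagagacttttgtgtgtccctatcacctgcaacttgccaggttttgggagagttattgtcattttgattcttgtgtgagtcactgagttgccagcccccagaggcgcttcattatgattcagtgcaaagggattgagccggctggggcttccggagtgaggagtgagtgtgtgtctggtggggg
Dcx: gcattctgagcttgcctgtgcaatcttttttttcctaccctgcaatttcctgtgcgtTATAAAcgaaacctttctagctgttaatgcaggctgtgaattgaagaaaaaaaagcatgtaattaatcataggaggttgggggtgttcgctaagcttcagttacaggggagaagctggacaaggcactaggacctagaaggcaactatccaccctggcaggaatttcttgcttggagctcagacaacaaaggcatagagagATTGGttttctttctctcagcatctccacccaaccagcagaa

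The Map1b window was rich in G and C (65.7%). It held matches to the E-box CAGATG (-213 bases from the start), to the GC box at 2 places (-39 and 9) and to the TATA box (-99). The Dclk1 windows had 52.7% and 50.3% G and C, the upstream one with a single CCAAT box and the downstream one with no motif searched. The Dcx window had 44.7% and held matches to the TATA box (-193) and the CCAAT box (8), the latter on the opposite strand and so printed as its complement. All of these are matches of letters alone, and whether any of them acts in these promoters was not tested. The E-box CAGATG was in 2 of the 8 member promoters and in 17.2% of all 32851 promoters of RefSeq searched, and the E-box CAGCTG in 0 and in 16.3%. A GC box was in 3 and in 35.7%, a CCAAT box in 4 and in 37.4%, and a TATA box in 3 and in 13.6%. The windows of the 2 Dcx starts overlap and share the same TATA box match, at -193 and -98 from their starts, so that site is counted in both. The median share of G and C over all promoters was 52.7%. The left part of the RE1 element that the repressor Rest binds, searched as TTCAGCACC, was in 0 of these 8 windows and in 0.371% of all promoters. The single probe of Rest was detected on none of the 11 arrays.

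Dcx, a microtubule-binding protein of migrating neurons whose gene lies on the X chromosome, did not pass. Its brightest probe read 12.58, 12.79 and 12.91 at E13 as lowest, median and highest, and 12.73, 12.92, 13.11, 12.86 and 12.78 on E16 replicates 1 to 5. The stages overlapped, with E16 replicates 2 and 3 above all E13 arrays. The difference was 0.12 (SE 0.0847, interval -0.06 to 0.30, adjusted p = 0.313 in limma), and the other bright probe, ILMN_2931623, gave 0.15 (adjusted p = 0.182 over all kept probes). Both intervals leave out a change of more than 0.32 in either direction.

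The brightest probes of Dcx and Dclk1 nevertheless parted from each other. Only these probes enter the shift given below. The Dclk1 probe ILMN_1259689 was higher at E16 by 0.36, did not pass (adjusted p = 0.284 in limma), and was not set against Dcx by itself. Within an array, Dcx minus Dclk1 ran from 1.71 to 2.36 at E13 with a median of 2.25, and was 2.77, 2.58, 2.99, 3.17 and 2.51 on E16 replicates 1 to 5. No E16 array fell in the E13 range. The shift was 0.63 (exact two-sided permutation test, n = 11, p = 0.00216, the smallest that can be had, and 0.0152 adjusted over 7 pairs of related genes). With any E13 array left out the shift was 0.54 to 0.67. The smallest p that the exact permutation test then allows is 0.00794. Adjusted over the 7 pairs this becomes 0.0556, unless other pairs have low p-values too.

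**Figure D2:**
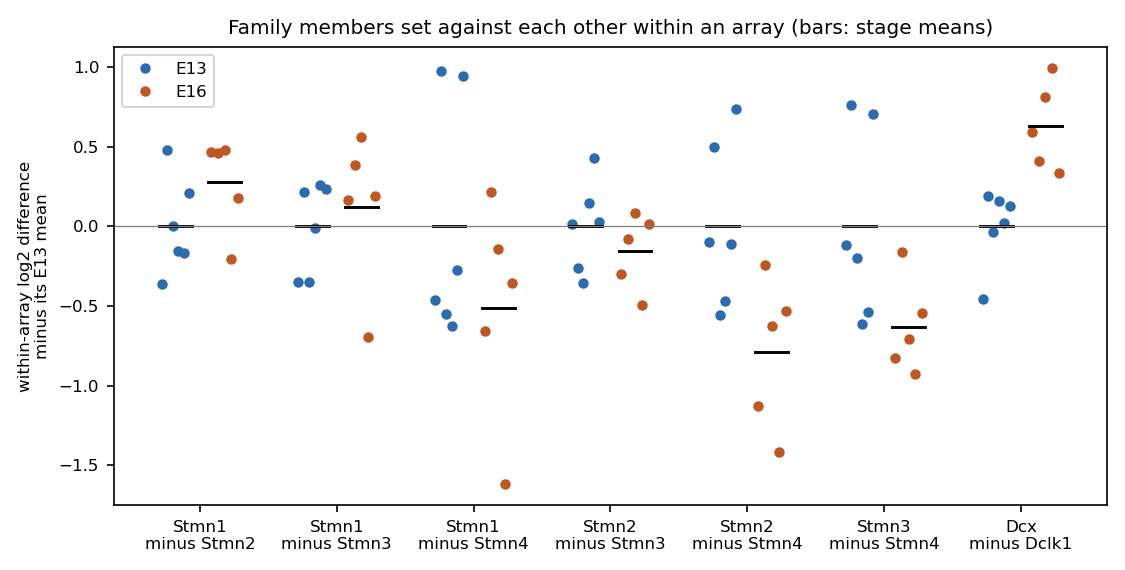
Difference between the log2 intensities of the brightest probes of 2 related genes on the same array, minus its E13 mean. The 6 pairs of stathmins and Dcx with Dclk1 are shown, with points for arrays and bars for stage means. The stages separate for Dcx minus Dclk1 and overlap for the stathmin pairs.

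Tubb3, the beta tubulin isotype commonly used to mark neurons, is read by 1 probe, and that probe was dim, with raw intensities between 25.5 and 76.3. It was detected on all 11 arrays. It read 5.49, 5.99 and 6.45 at E13 as lowest, median and highest, and 5.997, 5.53, 5.85, 6.16 and 6.21 on E16 replicates 1 to 5, so that E16 lay inside the E13 range. The difference was 0.004 (SE 0.182, interval -0.38 to 0.39, adjusted p = 0.991 in limma). The interval spans changes of up to 0.39 in either direction, and the sign turned with median centring and some other settings.

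Map2, a structural protein of dendrites and cell bodies, had the most probes (9), of which 6 were kept. The brightest read 13.02, 13.20 and 13.25 at E13 as lowest, median and highest, and 13.13, 13.16, 13.14, 12.68 and 12.64 on E16 replicates 1 to 5. Replicates 1 to 3 lay inside the E13 range, and replicates 4 and 5 below it. The difference of -0.21 did not pass (SE 0.1001, adjusted p = 0.130 in limma), and without replicates 4 and 5 it was -0.02 (adjusted p = 0.836).

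Dimmer Map2 probes on the same RefSeq record fell by more. ILMN_2709782 averaged 7.56 ± 0.244 (SD, n = 6) and 6.88 ± 0.424 (SD, n = 5) and fell by 0.68 (adjusted p = 0.0166 in limma over all kept probes). ILMN_1226553 averaged 7.003 ± 0.217 (SD, n = 6) and 6.28 ± 0.297 (SD, n = 5) and fell by 0.72 (adjusted p = 0.00411). For both it was E16 replicate 5 that lay within the E13 range, at 7.60 and 6.77, whereas replicates 1 to 4 lay below it at 6.47 to 6.80 and at 6.04 to 6.32. Without replicates 4 and 5 they differed by -0.78 and -0.80 (adjusted p = 0.00274 and 0.00267 in limma). These replicates were left out after seeing the data, and replicate 5 was the highest E16 array of both probes. That fit therefore adds no support for a fall. Of the E16 arrays below the E13 range of these probes, only replicate 4 was also low for the brightest Map2 probe.

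The clone-annotated Map2 probes ILMN_1226082 and ILMN_1240895 had the widest E16 ranges of all Map2 probes, 2.90 and 4.81. ILMN_1226082 read 10.40, 10.92 and 11.14 at E13 as lowest, median and highest, and 11.21, 11.35, 10.91, 9.80 and 8.45 on E16 replicates 1 to 5. Here too replicates 4 and 5 were the low arrays. ILMN_1240895 read 5.13, 9.40, 5.33, 8.66, 8.73 and 8.38 on E13 replicates 1 to 6 and 8.65, 9.71, 9.41, 8.39 and 4.90 on E16 replicates 1 to 5. Its values fell at 2 levels with none between, the low one on E13 replicates 1 and 3 and E16 replicate 5, where raw intensities were 21.0, 25 and 10.2 against 325 to 828 elsewhere. The brightest Map2 probe was also lowest within each stage on these arrays, though by far less. Neither probe passed (adjusted p = 0.398 and 0.688 in limma). The remaining clone probe, ILMN_2560139, was dim, detected on 5 of 6 and 3 of 5 arrays, with a difference of -0.18 that did not pass (adjusted p = 0.629).

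**Figure D3:**
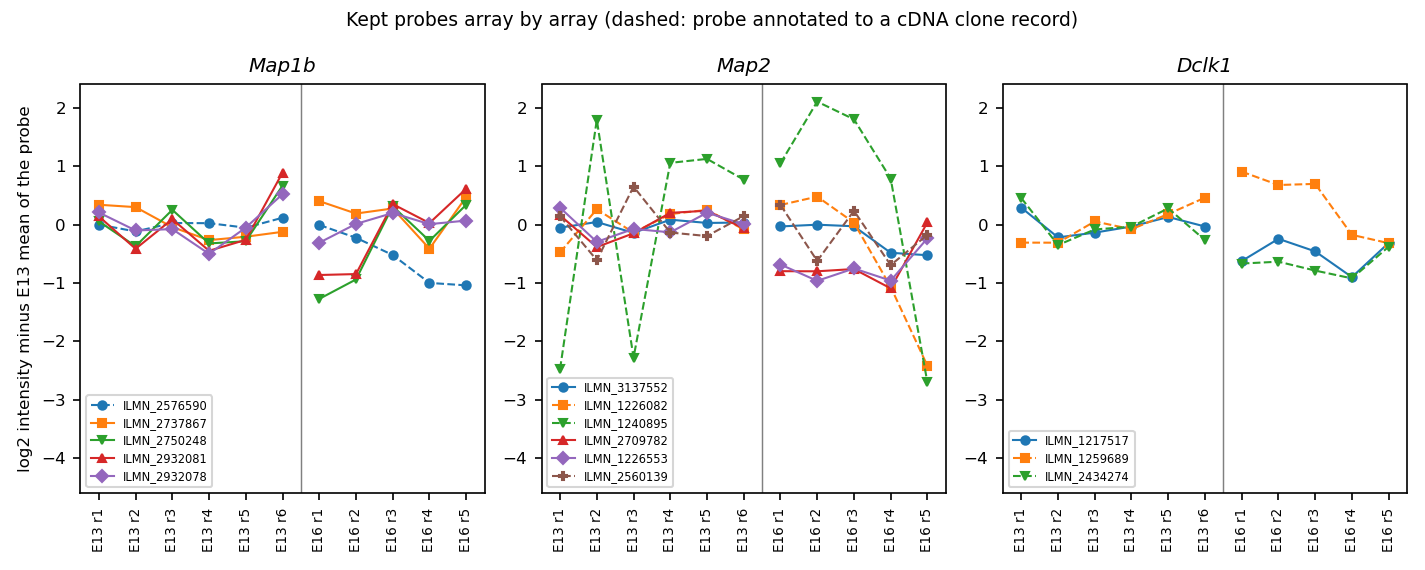
Kept probes of Map1b, Map2 and Dclk1 on each array, as log2 intensity minus the E13 mean of the probe; lines join the arrays of a stage for reading only, and dashed lines are probes annotated to cDNA clones. The Map2 probe ILMN_1240895 is low on E13 replicates 1 and 3 and on E16 replicate 5, and the dashed Map1b probe is lowest on E16 replicates 4 and 5.

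The stathmins did not pass as single genes. Stmn1, which is made in dividing cells as well as in neurons, read 12.74, 12.99 and 13.24 at E13 as lowest, median and highest, and 12.94, 13.10, 13.18, 12.64 and 13.12 on E16 replicates 1 to 5. Its E16 values spread over the E13 range, with replicate 4 just below it. The difference was 0.01 (SE 0.108, interval -0.22 to 0.24, adjusted p = 0.944 in limma), so changes beyond 0.24 lie outside the interval, and the sign turned with median centring (-0.07).

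Stmn2, a membrane-attached stathmin of growth cones, was the stathmin nearest to the threshold. It read 13.24, 13.50 and 13.74 at E13 as lowest, median and highest, and 12.97, 13.15, 13.20, 13.35 and 13.45 on E16 replicates 1 to 5. E16 replicates 1 to 3 lay below every E13 array. The difference was -0.26 (SE 0.104, adjusted p = 0.0732 in limma). It passed with median centring (-0.36, adjusted p = 0.0255), with array weights (-0.32, adjusted p = 0.0190), and without E13 replicate 2 (0.0445), E13 replicate 3 (0.0404) or E16 replicate 5 (0.0372). Without E16 replicates 4 and 5 it was -0.38 (adjusted p = 0.0221 in limma). Those are its highest E16 arrays and were left out after seeing the data, so that fit adds no support for a fall.

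Stmn3 and Stmn4 are stathmins found mainly in neurons. Stmn3 read 11.25, 11.42 and 11.59 at E13 as lowest, median and highest, and 11.21, 11.16, 11.05, 11.78 and 11.37 on E16 replicates 1 to 5, with replicate 4 above and replicates 1 to 3 below all E13 arrays. Its difference was -0.11 (interval -0.35 to 0.13, adjusted p = 0.527 in limma), and -0.28 without E16 replicates 4 and 5 (adjusted p = 0.0333 in limma). Those are again its highest E16 arrays, left out after seeing the data, so that fit adds no support for a fall. Stmn4 read 9.61, 10.71 and 10.98 at E13 as lowest, median and highest, and 11.03, 10.32, 10.75, 11.69 and 10.91 on E16 replicates 1 to 5. The low E13 arrays were replicates 2 and 6, and E16 replicates 1 and 4 lay above all E13 arrays. Its difference of 0.53 (interval -0.05 to 1.10, adjusted p = 0.167 in limma) came with an SE of 0.269, and its other probe gave 0.42 (adjusted p = 0.271). The difference was 0.34 without E16 replicate 4, 0.24 with array weights and 0.29 without E16 replicates 4 and 5, and none of these passed.

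Set against each other within arrays, the stathmins gave no pair that passed after adjustment over the 7 pairs. Stmn2 minus Stmn4 moved most, by -0.79 (exact two-sided permutation test, n = 11, p = 0.0281, adjusted p = 0.0985, and 0.05 without E16 replicate 2), and it was below the E13 range on E16 replicates 1, 3 and 4. Stmn3 minus Stmn4 moved by -0.64 (exact p = 0.0584, adjusted p = 0.136). The other 4 pairs moved by between -0.51 and 0.28 (exact permutation tests, adjusted p between 0.288 and 0.630). The E13 standard deviation of Stmn2 minus Stmn4 was 0.518, and that of Dcx minus Dclk1 was 0.241.

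Across the 27 kept probes 1 rose (Mapt), 5 fell (2 of Dclk1, 1 of Map1b and 2 of Map2) and 21 did not pass. One of the Dclk1 probes counted as lower, ILMN_2434274, had entered only through E13, and 4 probes were lower with detection at 0.01 on every array. For comparison, 10.7% of all kept probes were higher and 11.9% lower, 22.6% in all. More than 1 probe was kept for 7 genes, and in 4 of them, Dclk1, Map1b, Map2 and Mapt, the probes differed in sign. Of the 33 probes 8 are annotated to cDNA clones and 25 to RefSeq messenger RNAs. All 8 clone probes were kept, and the median spread between their highest and lowest E16 array was 1.13. For the RefSeq probes it was 0.54 over all 25, of which 19 were kept. That median includes the 6 probes detected on no array, whose E16 spreads were only 0.099 to 0.436, so the medians do not compare kept probes alone.

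**Figure D4:**
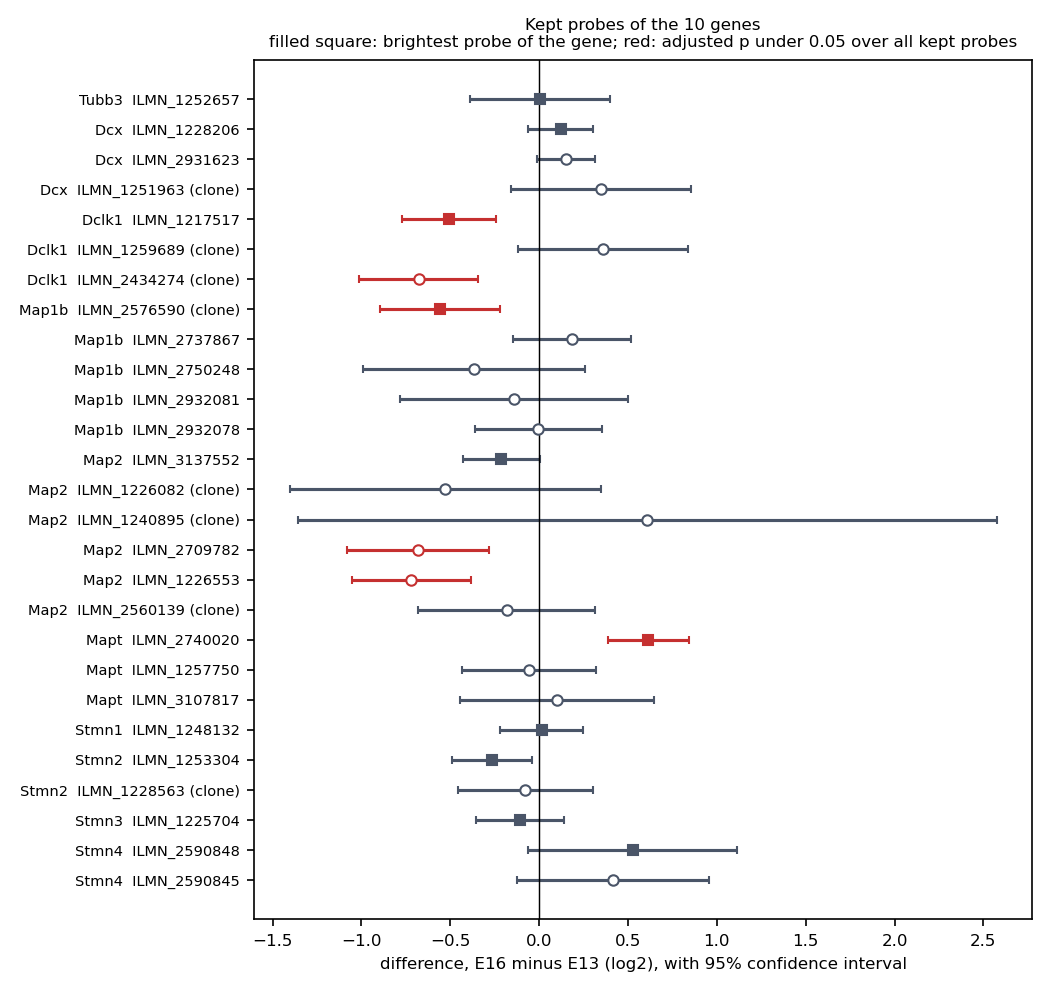
Difference between the stages for each kept probe with its 95% confidence interval; filled squares are the probes that stand for their genes, and red marks adjusted p under 0.05 over all kept probes. The probes of Dclk1, Map1b and Map2 fall on both sides of 0, and the Map2 probe ILMN_1240895 has the widest interval.

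The rest of the microtubule system was read from 7 lists with 105 measured genes. The shares over all genes tested, 13% higher and 14.1% lower, stand beside these and the list counts that follow. Of the 105 genes 9 rose and 21 fell, with a median of -0.064. Spindle proteins held 8 of those that fell, out of 12 measured, with 0 higher and a median of -1.03. They included Kif2c, a kinesin that depolymerises microtubules (-1.44, adjusted p = 6.08e-07 in limma), the spindle assembly factor Tpx2 (-1.33), Nusap1 (-1.39) and Prc1, which bundles the central spindle (-1.37). These genes belong to dividing cells, and markers of basal progenitors were also lower (9 of 12 fell and 1 rose, summed normalized intensity 48500 to 58700 at E13 and 38000 to 45100 at E16, Btg2 detected on no array). The part of this in the members' values was not tested.

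Tubulins, the partners of all these proteins, showed 3 lower and 0 higher of 14 genes, with a median of -0.15. Those that fell were Tubd1 (-0.47), the gamma tubulin Tubg1 of microtubule nucleation (-0.40) and Tuba3b (-0.38, adjusted p = 0.0428 in limma), whose probe may not separate it from near-identical copies. The neuronal isotypes Tuba1a (-0.04, adjusted p = 0.668 in limma) and Tubb2b (0.07, adjusted p = 0.361) did not pass. Their means at E13 and E16 were 14.92 and 14.88 for Tuba1a and 15.02 and 15.09 for Tubb2b. These levels lie near the brightest signals of the arrays, where a change may not show, so they cannot be called unchanged. Of 24 other proteins that bind microtubules or their ends 4 rose and 4 fell, with a median of -0.02. Mtus2 fell by 1.05, while Mid1 (0.68), Clip4 (0.49) and Camsap3, which holds minus ends (0.44), rose. Dclk2, the doublecortin relative, rose by 0.27 (SE 0.0822, adjusted p = 0.0224), the direction opposite to that of the brightest Dclk1 probe.

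The collapsin response mediator proteins bind tubulin dimers and act in axon growth, and 2 of 5 rose while 1 fell. Dpysl4 fell by 1.05 (adjusted p = 8.12e-05 in limma), and Dpysl5 and Dpysl3 rose by 0.57 and 0.28. Among 22 partners of doublecortin and tau, their kinases and dynein subunits, 3 rose, 2 fell and the median was 0.004. The dynein intermediate chain Dync1i1 rose by 1.65 and the kinase Mark1, which phosphorylates tau, by 0.76, while Nde1, a dynein regulator of dividing progenitors, fell by 1.04 and Mapk10 by 0.64. The tau kinase Cdk5 rose by 0.35 (adjusted p = 0.00753), its activator Cdk5r1 did not pass (0.14, adjusted p = 0.127), and neither did Pafah1b1, the lissencephaly gene product of the dynein complex (-0.22, adjusted p = 0.122).

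Of 15 tubulin-modifying enzymes 1 fell, Tpgs2 of the polyglutamylase complex (-0.72, adjusted p = 1.30e-05 in limma), and 0 rose. Of 13 genes of tubulin folding, nucleation and severing 2 fell and 0 rose, the fidgetin-type proteins Fign (-0.84) and Fignl1 (-0.82). Of 13 transcriptional regulators of neuronal genes 3 rose and 4 fell. Myt1l, which keeps neurons from other fates, rose by 0.94, while Eomes (-0.75), Neurod4 (-0.69) and Neurog2 (-0.60), all 3 also on the list of basal progenitor markers, fell. Insm1, likewise on both lists, rose by 0.38 (adjusted p = 0.00305 in limma) and is named after its values were seen.

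**Figure D5:**
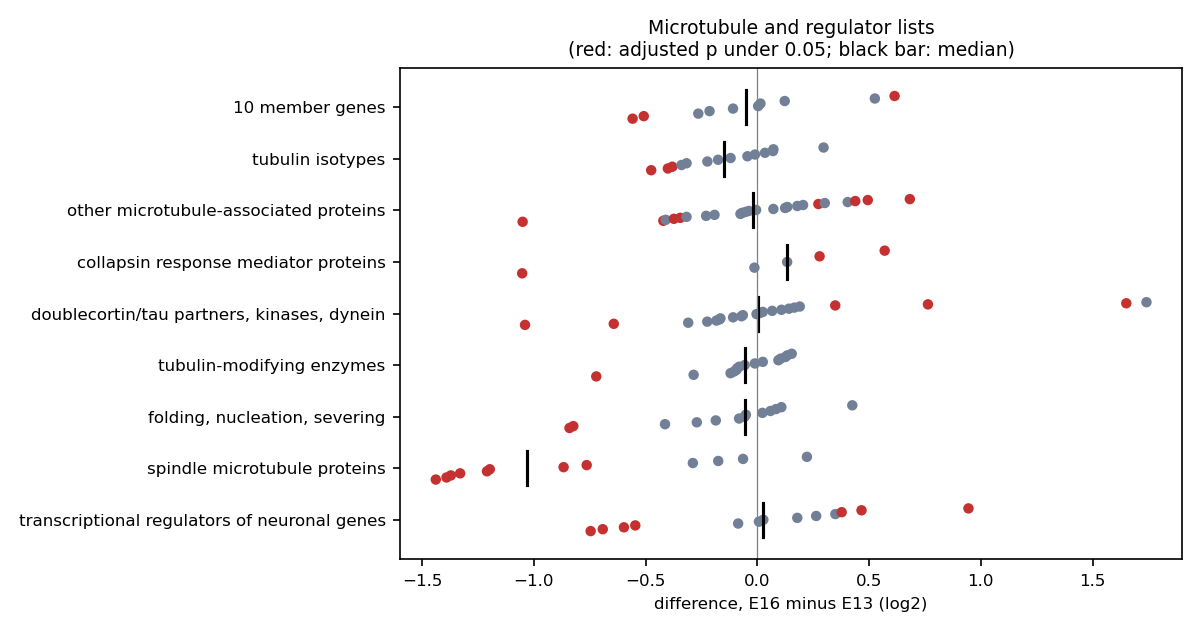
Difference between the stages for the 10 genes and for the measured genes of 7 microtubule lists and of the list of transcriptional regulators; each point is a gene, red marks adjusted p under 0.05 and black bars are medians. The spindle list lies to the left with a median of -1.03, and the other medians lie between -0.15 and 0.13.

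Markers of other cells were read on the same arrays. Of 16 pan-neuronal genes outside the 10, 7 fell and 2 rose, with a median of -0.12 and a summed normalized intensity of 69500 to 78600 at E13 and 64400 to 75900 at E16, and Nefl and Snap25 were detected on no array. Among them the intermediate filament gene Ina (-1.245) and Nefm (-0.79) fell, and the adhesion molecules Thy1 (1.397, detected on 4 of 6 E13 arrays) and Ncam1 (1.07) rose. Of 7 genes that mark Cajal-Retzius cells, which are among the first cortical neurons, 6 fell (median -2.50, summed intensity 12100 to 18400 at E13 and 2830 to 5320 at E16), among them Ebf2 (-3.68), Lhx1 (-3.28) and Ebf3 (-2.50). Lhx5 was also lower but was detected on 6 of 6 and 2 of 5 arrays. Neurons of either kind make microtubule proteins, and their part in the members' values was not tested.

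Radial glia markers went both ways, with 4 of 12 higher and 2 lower and summed intensities of 3440 to 4790 and 4450 to 5150. Slc1a3 (2.22), Ptprz1 (1.94) and Mfge8 (1.21) rose and Vim fell by 1.56. Of the interneuron list 5 of 8 genes were measured, with Gad2 higher (0.77) and Dlx2 counted as lower although it entered only through E13 (detected on 5 of 6 and 0 of 5 arrays), Dlx5 and Dlx6 on none, and sums of 247 to 557 and 286 to 467. The 1 measured erythroid gene, Hba-a1, rose by 2.48 (33.9 to 748 and 595 to 2010), and Olig1 of the oligodendrocyte lineage was higher by 1.32 with detection on 2 of 6 and 5 of 5 arrays, with 2 genes of that list measured, Olig2 and Sox10 on no array, and sums of 77.4 to 102 and 122 to 166. No endothelial or mural gene passed the detection filter, 6 of 7 being detected on no array, and the microglia genes Aif1 (0.16) and Csf1r (0.12) did not pass (sums 65.4 to 83.7 and 70.0 to 93.9, the other 4 of that list on no array).

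The genes whose values over the 11 arrays were most like those of the 3 members that passed were found by the root mean square difference after centring each gene on its mean. For Mapt they were Micall1 (0.077), Frat2 (0.093) and Iffo2 (0.096). For Dclk1 they were Taf13 (0.106), Kbtbd6 (0.108) and Mmd (0.116). For the brightest probe of Map1b they were Lpar6 (0.155), Gadd45g (0.157) and Marchf11 (0.160), of which Gadd45g is a marker of basal progenitors in the list above. These are descriptions of likeness over arrays of both stages, which share the stage difference.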

How the data were processed

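Total RNA of sorted basal progenitors was labelled with biotin and hybridised to an Illumina bead array, per the labels' protocols. The authors deposited raw probe intensities, with background subtracted (26.9% to 29.2% of the values of an array were below 0) and no normalization between arrays, and a detection p-value per probe and array, per the file headers. The authors also deposited log2 values of 16554 probes, whose columns share the same sorted values; these served only as an alternative.

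Probes were named through the platform annotation (34885 of 45281 with 1 gene symbol). Intensities were background corrected with normexp, quantile normalized with neqc (limma 3.58.1, R 4.3.3), which adds an offset of 16 before log2. Probes with detection p under 0.05 on at least 5 arrays were kept (20599), and the brightest stood for each of 10568 genes. The stages were compared with lmFit and eBayes with a mean-variance trend, two-sided, once over genes and once over all kept probes. Related genes were compared within arrays with exact permutation tests. The fit was tested on simulated data. P-values take each embryo as independent, but littermates are among them, and the number of arrays limits the precision (median SE of a difference 0.126).

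The members and lists were chosen with earlier results of these data known. Named genes were the 10 members, up to 4 past-threshold genes of each list with the largest differences (2 where none passed), Rest, Tuba1a, Tubb2b, Pafah1b1, Cdk5, Cdk5r1 and Dclk2, and the 3 genes most like each member that passed. Alternatives covered normalization, background, offset, the deposited log2 values, detection filters, weights, variance trend, a replicate block and single arrays.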

Additional observations from a re-analysis of the deposited data

Results flagged for a closer look

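One value of the 27 kept probes stood far from the rest of its stage. The Map2 probe ILMN_1240895 read 4.90 on E16 replicate 5, against 8.39 to 9.71 on E16 replicates 1 to 4, and the gap was 0.726 of the whole E16 range. Of 54 groups of arrays examined in this way 1 was picked out, and chance picks about 1 in 20. At E13 the same probe read 5.13 and 5.33 on replicates 1 and 3, which as a pair could not be picked out by a rule on single arrays. The brightest Map2 probe read 12.64 on that E16 array and 13.11 and 13.02 on those E13 arrays, which were the lowest of their stage for that probe too, within stage ranges of 0.523 and 0.226.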

How the results depend on the processing

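The calls of Mapt and Dclk1 held in all 21 alternatives, and that of Map1b in 20 of 21, the exception being the fit without E16 replicates 4 and 5. Among the 10 genes 1 was higher and 2 or 3 lower in each alternative, apart from 2 higher with the replicate block; fits without single arrays gave 1 higher and 2 to 3 lower. Without E16 replicates 4 and 5, 2 member probes were higher. With detection at 0.01 on every array, where fewer genes were tested, 6 marker genes were higher in place of 10. The smaller differences changed sign. Tubb3 gave -0.056 with median centring, -0.002 with an offset of 50, -0.033 with array weights, -0.017 with the replicate block, -0.15 without E16 replicates 4 and 5, and -0.087 to 0.109 without single arrays. Stmn1 gave -0.072 with median centring and -0.033 to 0.102 without single arrays. Of the Map1b probes, ILMN_2932081 gave 0.035 with the replicate block and -0.334 to 0.036 without single arrays, and ILMN_2932078 gave 0.002 with no background correction, 0.11 with array weights, 0.099 with the replicate block and -0.105 to 0.099 without single arrays. Of the Mapt probes, ILMN_3107817 gave -0.10 with array weights, -0.036 with the replicate block, -0.26 without E16 replicates 4 and 5 and -0.042 to 0.25 without single arrays, and ILMN_1257750 gave -0.164 to 0.013 without single arrays. Without E16 replicates 4 and 5 the Map2 probe ILMN_1226082 gave 0.28 and the Stmn2 probe ILMN_1228563 gave 0.051. The change in the brightest Map2 probe minus ILMN_1226082 was then -0.31, against 0.31 over all arrays and -0.082 to 0.512 without single arrays. Dcx minus Dclk1 was 0.66 with the replicate block (adjusted p = 0.146), where 5 pairs cannot pass, and 0.54 to 0.70 without single arrays. Stmn2 minus Stmn4 was -0.925 to -0.632 without single arrays. Apart from these, the causes were not tested.

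Replicate numbers do not pair the arrays: same-numbered arrays had correlations of -0.10, 0.057, -0.069, -0.10 and 0.143 in their deviations from the stage means. With the number as a block Stmn4 passed (0.36, adjusted p = 0.0435). Median centring moved the median of all genes to -0.05. Limits are the number of arrays, unknown litters, dim probes such as that of Tubb3, and probes of a gene that disagree.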
